A study of Mus musculus with 21 samples.

Results

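The EGF family of growth factors and their receptors was described in mouse prostate tumours. Its members were taken by name: the ligands Areg, Ereg, Hbegf, Tgfa, Btc and Egf and the receptors Egfr, Erbb2 and Erbb3, with every probe that the probe table gives to these 9 genes. The table named 8 of the 9 genes through 16 probes. Areg was not analysed here. Of these probes, 10 from 5 genes (Hbegf, Btc, Egf, Egfr and Erbb2) were detected on at least 3 arrays and were tested, among 12570 genes with a tested probe and 19020 genes named in all.

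Bulk RNA of tumours from the anterior prostate was hybridised to Illumina bead arrays, 1 array a sample. The labels give 4 groups: NPK_3Month (late stage, 2 arrays), NPK_1Month (early stage, 3 arrays), NPK with no stage (8 arrays) and NP (8 arrays). The labels do not spell out the genotypes. In the published model of that name, both carry a tamoxifen-inducible Cre knocked into Nkx3.1, a gene of the luminal prostate epithelium. The NP tumours that serve as controls therefore share the knock-in, which replaces a copy of Nkx3.1. The Cre acts in cells that express Nkx3.1 when it is induced. These bulk samples also hold other kinds of cells, and which cells were recombined was not measured here. The labels give no age and do not say from what event the months were counted.

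EGF family ligands are made as membrane-anchored precursors, and proteases of the ADAM family release them. Areg, Egf and Tgfa bind EGFR, whereas Hbegf, Btc and Ereg bind both EGFR and ERBB4. ERBB2 has no known ligand of its own and signals as a partner of the other receptors, and ERBB3, a neuregulin receptor with little kinase activity, relies on such a partner. The activated receptors feed the RAS-MAPK and PI3-kinase pathways. In the prostate, EGFR is found in basal and stromal cells as well as in luminal cells, and HBEGF is made by stromal cells and by tumour epithelium.

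Egfr and Erbb2 were the receptors with tested probes, and both lie on chromosome 11 of the mouse. Their promoter windows are shown because these receptors moved differently between the groups. The windows hold 300 bases each, most of them before the gene start in RefSeq's annotation of the build GRCm38.p6, on the plus strand, at chr11:16751953-16752252 for Egfr and chr11:98412234-98412533 for Erbb2. Capitals mark matches, on either strand, to the letters CCGGAA (an ETS core) and GGGCGG (a GC box). TGANTCA (AP-1) was searched for as well, and no match of one motif overlapped a match of another.
Egfr: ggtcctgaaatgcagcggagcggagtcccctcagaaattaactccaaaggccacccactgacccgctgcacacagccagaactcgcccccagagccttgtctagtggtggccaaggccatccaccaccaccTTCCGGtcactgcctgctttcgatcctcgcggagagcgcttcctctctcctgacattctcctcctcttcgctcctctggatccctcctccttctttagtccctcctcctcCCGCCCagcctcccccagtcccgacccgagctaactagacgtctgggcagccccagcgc
Erbb2: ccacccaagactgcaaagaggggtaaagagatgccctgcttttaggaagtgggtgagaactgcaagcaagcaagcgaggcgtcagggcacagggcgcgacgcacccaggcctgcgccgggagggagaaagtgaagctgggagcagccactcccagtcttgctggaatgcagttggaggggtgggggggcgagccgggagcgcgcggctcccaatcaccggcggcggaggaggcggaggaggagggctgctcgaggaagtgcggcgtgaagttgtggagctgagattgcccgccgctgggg

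The Egfr window held 1 ETS match and 1 GC box match and had a GC content of 62.3%. The Erbb2 window held no match to these letters and had a GC content of 66%. Over 32851 promoter windows of the same length, 14.9% held the ETS letters, 35.7% the GC box letters and 7.81% the AP-1 letters. A match is a run of letters and does not show that a factor binds there. Among the ligands, Epgn, Ereg, Areg and Btc are consecutive protein-coding genes on chromosome 5, whereas Egf lies on chromosome 3, Tgfa on chromosome 6 and Hbegf on chromosome 18.

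Detected probes numbered 19489 to 19600 an array in NPK_3Month, 19458 to 20138 in NPK_1Month, 15855 to 18226 in NPK and 19063 to 20405 in NP. The arrays lay on 6 chips. No chip held both NPK and NP tumours, and the month-labelled arrays shared 1 chip with no other group. Chip and group therefore cannot be told apart when NPK or a month-labelled group is set against NP, but they are not confounded between the month-labelled groups. Replicates 4 and 5 of NP differed by an SD of 0.135 on the log2 scale over 4956 bright probes, against 0.375 for the next closest replicate pair, and were counted as 1 sample. The 2 arrays of NPK_3Month differed the most of all replicate pairs (SD 0.892). The epithelial keratins Krt8 and Krt18 were detected on every array; other epithelial genes were lower in NPK_3Month, with values given beside Erbb2. Seminal vesicle genes, a mark of neighbouring tissue, averaged 5.65 to 7.07 (log2 level over the 7-gene list) in NPK_3Month, 10.5 to 14.4 in NPK_1Month, 6.27 to 14.5 in NPK and 4.92 to 7.34 in NP.

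Several probes of the family were below detection on all or nearly all arrays. Neither Ereg probe was detected on any of the 21 arrays, and their highest background-subtracted intensities were 37.8 and 36.6. The Erbb3 probe was also detected on 0 of 21 arrays, with intensities up to 31.1. The Tgfa probe was detected on 1 array, NPK 8. A second Hbegf probe and a sixth Egfr probe were detected on none. These probes give no level at this sensitivity, and ERBB3 and EREG transcripts may still be present, since a silent probe and an absent transcript cannot be told apart.

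**Figure D1:**
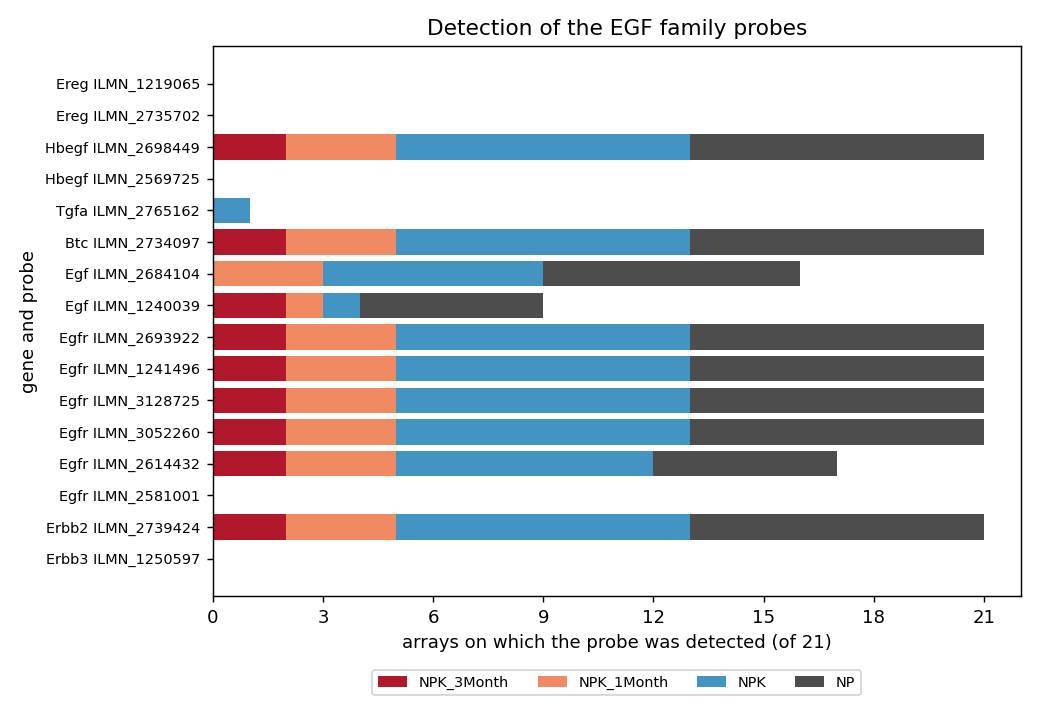
Number of arrays (of 21, x axis) on which each of the 16 probes of the family was detected, by gene and probe, with colours for the 4 groups. Hbegf, Btc, Erbb2 and 4 of the 6 Egfr probes were detected on all 21 arrays, whereas the Ereg and Erbb3 probes were detected on 0.

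In NPK against NP tumours, 4 of the 10 tested probes were higher and 0 were lower, against 13.4% higher and 19.0% lower over all 24217 probes. The 4 probes belong to Hbegf and Egfr, so that 2 of the 5 genes were higher, and 3 of the 4 are probes of the single gene Egfr. The levels of only 1 probe, that of Hbegf, did not overlap between the groups. The median change of the 10 probes, 5 of them of Egfr, was 0.29 on the log2 scale, against -0.03 over all probes. With 1 probe a gene the median was 0.17 over 3 ligands and 0.15 over 2 receptors. In NPK_3Month against NPK_1Month tumours, 0 of the 10 probes were higher and 1, that of Erbb2, was lower, against 8.25% higher and 7.19% lower over all probes. The levels of 6 of the 10 did not overlap, in groups of 2 and 3 samples. The share of all probes without overlap was not counted in either comparison. The counts of probes without overlap are therefore not read as a result about the family. The median change there was -0.06, against 0.04 over all probes.

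**Figure D2:**
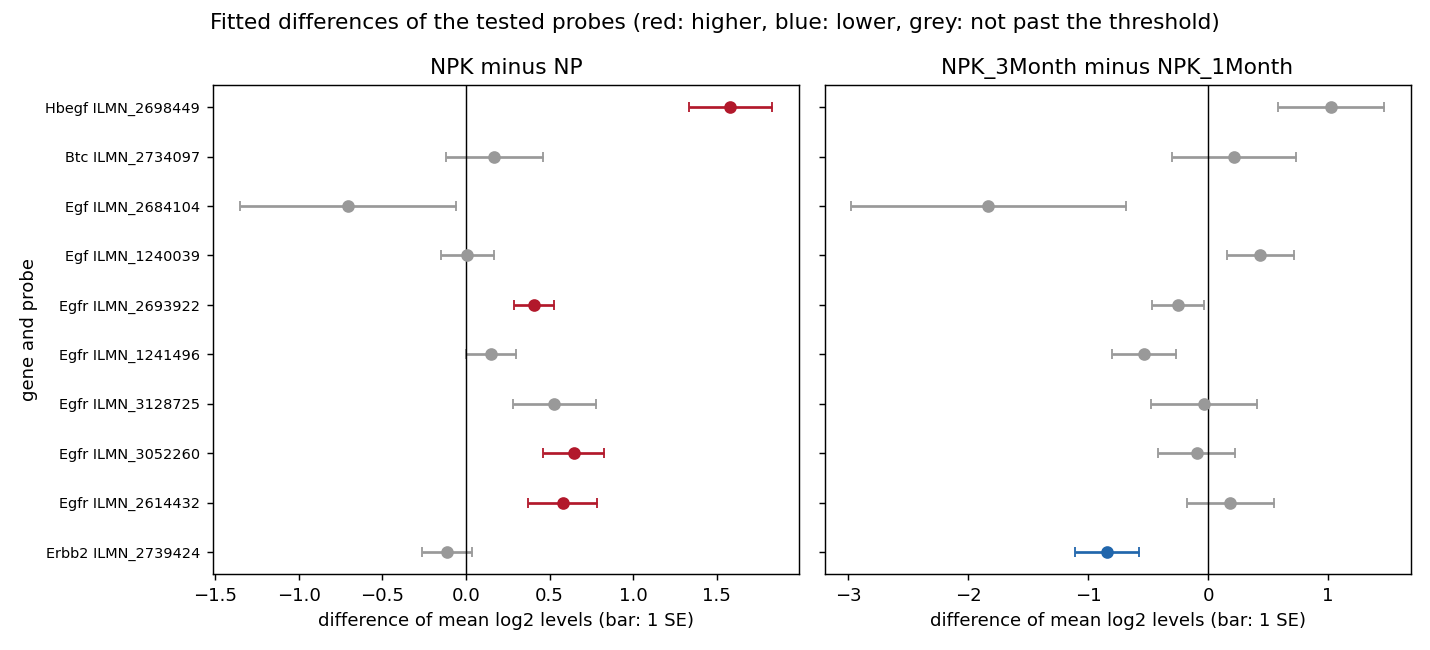
Differences of mean log2 levels with 1 SE (x axis) for the 10 tested probes (y axis), for NPK minus NP on the left and NPK_3Month minus NPK_1Month on the right. The Hbegf probe lies farthest to the right in both panels, and Erbb2 is the single probe past the threshold on the right, at -0.84.

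Hbegf, heparin-binding EGF-like growth factor, was the ligand that differed most between the genotypes. Its level in NPK tumours ran from 7.87 through a median of 8.76 to 9.89 (log2 normalized intensity, n = 8), against 7.19, 7.28 and 7.80 as lowest, median and highest in NP tumours (n = 7). Every NPK tumour was above every NP tumour, although the lowest NPK tumour, NPK 8, lay just above the highest NP tumour. Hbegf averaged 8.95 ± 0.64 in NPK and 7.37 ± 0.23 in NP (SD), 2.99-fold higher in NPK (log2 difference 1.58 ± 0.25 SE, adjusted p = 0.000137 in limma). The chip means were 9.07, 9.20 and 7.87 on the 3 NPK chips, the last of which held 1 array, and 7.26 and 7.53 on the 2 NP chips.

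The month-labelled tumours also carried high Hbegf levels, at 10.34 and 10.45 in NPK_3Month and at 8.75, 10.08 and 9.28 in NPK_1Month. Both NPK_3Month samples were above all 3 NPK_1Month samples. The difference of 1.02 ± 0.44 did not pass the threshold (adjusted p = 0.133). Set against NP, Hbegf was 8.12-fold higher in NPK_3Month (log2 difference 3.02 ± 0.39, adjusted p = 5.97e-06) and 3.99-fold higher in NPK_1Month (2.00 ± 0.33, adjusted p = 0.000183). In the order of means, NPK_3Month stood above NPK_1Month, NPK and NP, and NPK and NP were the only neighbours in that order to differ past the threshold. NPK minus NPK_1Month was -0.42 (adjusted p = 0.398). NPK and NPK_3Month, which are not neighbours in that order, did differ: NPK minus NPK_3Month was -1.44 (adjusted p = 0.00613), without overlap. Both are comparisons of one genotype across chips.

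These are bulk samples, so fewer cells of a type and less RNA per cell cannot be told apart. Stromal and vascular genes moved with the genotype. In NPK against NP, 3 of 7 fibroblast genes, 4 of 5 smooth muscle genes and 6 of 6 endothelial genes were higher, and 0 of each list were lower. The fibroblast list averaged 9.09 to 11.2 in NPK samples and 7.68 to 9.21 in NP samples. The smooth muscle list averaged 8.42 to 12.3 in NPK and 7.36 to 9.43 in NP, and the endothelial list 8.00 to 8.93 in NPK and 7.31 to 7.77 in NP. Seminal vesicle genes were higher for 5 of 7. Other lists held genes that were lower in NPK. T and NK cell genes were lower for 3 of 3 (median -1.70), urothelial genes for 3 of 4 (median -2.34) and B cell genes for 1 of 2 (median -1.09). Macrophage genes were lower for 2 of 6, with a median of -0.10 and list means that overlapped between the groups. Over all tested probes, 13.4% were higher and 19.0% lower. With the seminal vesicle, luminal or macrophage mean as a covariate the Hbegf call was kept. Each of these fits adjusts for a single list, and no chip held both groups, so they do not decide the part of cell composition. The part of the stromal, vascular, lymphoid and urothelial lists was not tested.

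Btc, betacellulin, was detected on all 21 arrays and did not separate the groups. Its level ran from 8.22 through 9.09 to 9.36 in NPK and from 8.27 through 8.88 to 9.13 in NP (lowest, median and highest), so that the ranges nearly coincided. The difference was 0.17 ± 0.29 (adjusted p = 0.684). In NPK_3Month the 2 samples stood far apart, at 10.50 and 8.21, around the NPK_1Month samples at 9.05, 8.54 and 9.83. That difference was 0.22 ± 0.51 (adjusted p = 0.867). Without NPK_3Month replicate 2, Btc was higher in NPK_3Month than in NP by 1.77 (adjusted p = 0.00704), and without replicate 1 the difference was -0.52, against 0.62 with both.

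Egf, the founding ligand, varied more within NPK and within NP than between these groups. Its brighter probe, ILMN_2684104, ran from 4.74 through 6.37 to 8.51 in NPK and from 5.27 through 7.02 to 10.50 in NP, and the groups overlapped over most of their ranges. It was detected on 6 of 8 NPK arrays and 7 of 8 NP arrays. The means were 6.40 ± 1.10 in NPK and 7.10 ± 1.81 in NP (SD), a difference of -0.70 ± 0.65 (SE, adjusted p = 0.427). The spread in NP followed the chips: replicates 6, 7 and 8, on a chip of their own, had 10.50, 8.17 and 7.18 and a chip mean of 8.62, whereas the other NP chip had a mean of 5.96. Set against the first of these chips alone, NPK was lower by 2.22 (adjusted p = 0.0296), and set against the second alone the difference was 0.43, so the direction rests on the NP chip used.

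Egf was below detection on both NPK_3Month arrays, at 5.04 and 5.03, and detected on all 3 NPK_1Month arrays, at 6.31, 6.36 and 7.92. The groups did not overlap. NPK_3Month was at least 2.46-fold lower than NPK_1Month (adjusted p = 0.335) and at least 2.90-fold lower than NP (adjusted p = 0.0997), and neither passed the threshold. Each bound sets the brighter group's mean against the lowest detectable level. The second Egf probe, ILMN_1240039, was near its detection limit on 9 of 21 arrays where it was detected and differed by 0.01 ± 0.16 between NPK and NP (adjusted p = 0.972). The Egf probes disagree in NPK_3Month, where the second was detected on both arrays, at 5.76 and 5.82.

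**Figure D3:**
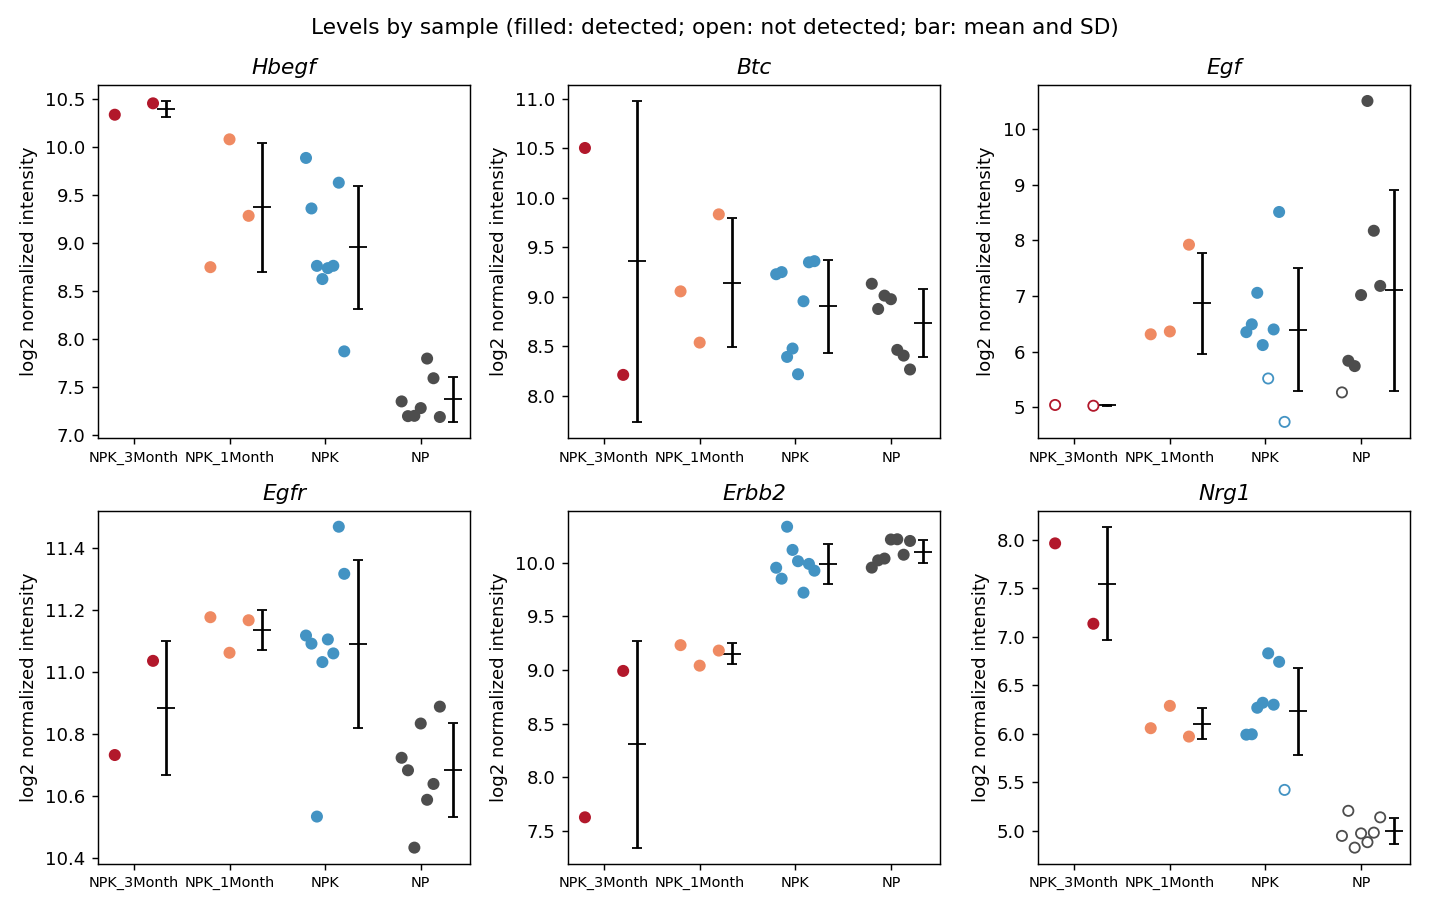
Log2 normalized intensity (y axis) of the brightest probe of Hbegf, Btc, Egf, Egfr, Erbb2 and Nrg1 in every sample of the 4 groups (x axis), with filled points for detected and open points for undetected samples and bars for the mean and SD. Hbegf is at least 7.87 in NPK, against at most 7.80 in NP, Erbb2 is lowest in NPK_3Month, and Nrg1 is undetected in every NP sample.

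Egfr, the receptor shared by these ligands, had 5 tested probes. Its brightest probe, ILMN_2693922, ran from 10.53 through 11.10 to 11.47 in NPK and from 10.43 through 10.68 to 10.89 in NP. All NPK samples but NPK 3 were above all NP samples. The means were 11.09 ± 0.27 in NPK and 10.68 ± 0.15 in NP (SD, n = 8 and 7), 1.33-fold higher in NPK (log2 difference 0.41 ± 0.12, adjusted p = 0.0151). This direction depends on the scaling, since scaling the arrays to equal medians instead gave a difference of -0.02 (adjusted p = 0.937), where the median over all probes moved to -0.36.

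The other Egfr probes gave a range of values. ILMN_3052260 ran from 7.40 through 8.19 to 8.56 in NPK and from 6.97 through 7.36 to 8.22 in NP, a difference of 0.64 ± 0.18 (adjusted p = 0.0109). ILMN_2614432 ran from 5.44 through 6.29 to 7.08 in NPK and from 5.45 through 5.68 to 6.03 in NP, a difference of 0.58 ± 0.21 (adjusted p = 0.0378). ILMN_3128725 differed by 0.53 ± 0.25 (adjusted p = 0.112) and ILMN_1241496 by 0.15 ± 0.15 (adjusted p = 0.473), so 3 of the 5 probes passed the threshold and under quantile normalization all 5 differences were above 0. The probe table ties ILMN_2693922 and ILMN_2614432 to one RefSeq transcript and ILMN_3052260 and ILMN_3128725 to another, so passing probes were found for both. With the chip as a random block the difference of the brightest probe was 0.44 and did not pass (adjusted p = 0.0638), without the chip of NP 1 to 5 it was 0.39 (adjusted p = 0.109), and without that of NP 6 to 8 it was 0.42 (adjusted p = 0.0532). ILMN_2614432 kept its call in 18 of 35 alternatives and ILMN_3052260 in 32 of 35. The stromal, vascular and seminal vesicle lists given beside Hbegf moved with this comparison as well. With the seminal vesicle mean as a covariate the Egfr call was kept, which does not decide the part of cell composition. The part of the stromal and vascular lists was not tested.

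Egfr did not pass the threshold between the month-labelled groups with any of its probes. The brightest probe had 10.73 and 11.03 in NPK_3Month and 11.18, 11.06 and 11.17 in NPK_1Month, lower in both NPK_3Month samples. The difference was -0.25 ± 0.21 (adjusted p = 0.515). Against NP, the brightest probe was higher in NPK_1Month by 0.45 ± 0.16 (adjusted p = 0.0341), with no overlap, and by 0.20 ± 0.19 in NPK_3Month, which did not pass (adjusted p = 0.40). Among the other probes, ILMN_2614432 passed against NP in both, at 1.00 ± 0.32 in NPK_3Month (adjusted p = 0.0158) and 0.81 ± 0.27 in NPK_1Month (adjusted p = 0.0258). In NPK_1Month, ILMN_1241496 passed as well (0.55 ± 0.20, adjusted p = 0.0379). The call of the brightest probe in NPK_1Month was lost without NP 3 (adjusted p = 0.0587), NP 6 (adjusted p = 0.0513) or any 1 NPK_1Month replicate (adjusted p = 0.0702 to 0.106), under median scaling (0.26, adjusted p = 0.397) and with the chip as a random block (0.45, adjusted p = 0.124). That of ILMN_2614432 was lost in NPK_3Month without replicate 2 (0.49, adjusted p = 0.358) and in NPK_1Month without replicate 3 (0.60, adjusted p = 0.155), and ILMN_1241496 kept its call in 14 of 23 alternatives. No neighbours in the order of means of the brightest probe, NPK_1Month, NPK, NPK_3Month and NP, differed past the threshold.

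Erbb2, the partner receptor, followed another order. Between the genotypes it did not differ past the threshold, at 9.72, 9.97 and 10.34 as lowest, median and highest in NPK and at 9.96, 10.08 and 10.22 in NP. The difference was -0.12 ± 0.15 (adjusted p = 0.582), and -0.56 under median scaling (adjusted p = 0.00977). In the month-labelled tumours it was lower than in both. NPK_3Month had 7.62 and 8.99 and NPK_1Month had 9.23, 9.04 and 9.18, with each NPK_3Month sample below each NPK_1Month sample. The difference between them was -0.84 ± 0.26, 1.79-fold lower in NPK_3Month (adjusted p = 0.0353).

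That call rests on few samples. Without NPK_3Month replicate 1 the difference between the month-labelled groups was -0.16 (adjusted p = 0.807). It was -0.80, -0.90 and -0.83 without NPK_1Month replicate 1, 2 and 3 (adjusted p = 0.0977, 0.0564 and 0.0809), and 10 of 20 alternatives kept the call. Against NP, Erbb2 was 3.48-fold lower in NPK_3Month (-1.80 ± 0.23, adjusted p = 6.51e-06) and 1.94-fold lower in NPK_1Month (-0.95 ± 0.20, adjusted p = 0.00122), without overlap in either. All 24 alternatives kept the second of these and 22 of 23 the first, which was -1.11 without NPK_3Month replicate 1 and -2.48 without replicate 2, past the threshold in both. Erbb2 was also higher in NPK than in NPK_1Month, by 0.84 (adjusted p = 0.00529), a comparison of one genotype across chips.

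Epithelial genes moved with Erbb2 in NPK_3Month. Of 9 luminal and general epithelial genes, 5 were lower in NPK_3Month than in NPK_1Month and 0 were higher, with a median of -1.77. They included Cdh1, E-cadherin (-2.37, adjusted p = 3.95e-05), and Esrp1, an epithelial splicing regulator (-5.76, adjusted p = 3.2e-05), while the keratins Krt8 and Krt18 had -0.43 (adjusted p = 0.152) and -0.68 (adjusted p = 0.111). The list averaged 9.70 and 10.46 in the NPK_3Month samples, 11.92 to 12.19 in NPK_1Month, 11.53 to 12.09 in NPK and 11.80 to 12.20 in NP. The sample with the lowest Erbb2 also had the lowest epithelial mean. In NPK_1Month the epithelial mean lay in the range of NP while Erbb2 was lower than in NP. Of the 9 epithelial genes, 3 were lower than in NP and 1 was higher (median 0.24). Of 5 basal genes, 1 was lower and 0 were higher (median -1.49). Over all tested probes, 18.4% were higher and 19.3% lower. Other lists moved between NPK_1Month and NP as well. Seminal vesicle genes were higher in NPK_1Month than in NP for 7 of 7 (median 7.30), skeletal muscle genes for 5 of 5 (median 3.49) and smooth muscle genes for 4 of 5, while urothelial genes were lower for 3 of 4, T and NK cell genes for 3 of 3 and macrophage genes for 4 of 6. The Erbb2 call between NPK_1Month and NP was kept with the seminal vesicle or the macrophage mean as a covariate, which does not decide the part of cell composition. The part of the other lists was not tested. The seminal vesicle means ran from 10.5 to 14.4 in NPK_1Month and from 4.92 to 7.34 in NP. That covariate and the group therefore cannot be told apart. With the luminal mean as a covariate, added after the data were seen, the Erbb2 difference was 0.89 ± 0.61 between NPK_3Month and NPK_1Month, -0.13 ± 0.58 between NPK_3Month and NP (adjusted p = 0.949) and -1.02 between NPK_1Month and NP, where the call was kept. The luminal means of NPK_3Month lay below those of all other samples, so in its comparisons this covariate and the group cannot be told apart. Basal genes were lower for 2 of 5 in NPK_3Month against NPK_1Month and prostate secretory genes for 3 of 4. Genes of neighbouring tissue moved as well, with 5 of 7 seminal vesicle genes and 4 of 5 skeletal muscle genes lower in NPK_3Month. With the seminal vesicle mean as a covariate the Erbb2 difference between the month-labelled groups was -0.61 (adjusted p = 0.32). The seminal vesicle means do not overlap between these groups either, so the same limit holds. The part of the skeletal muscle genes was not tested.

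**Figure D4:**
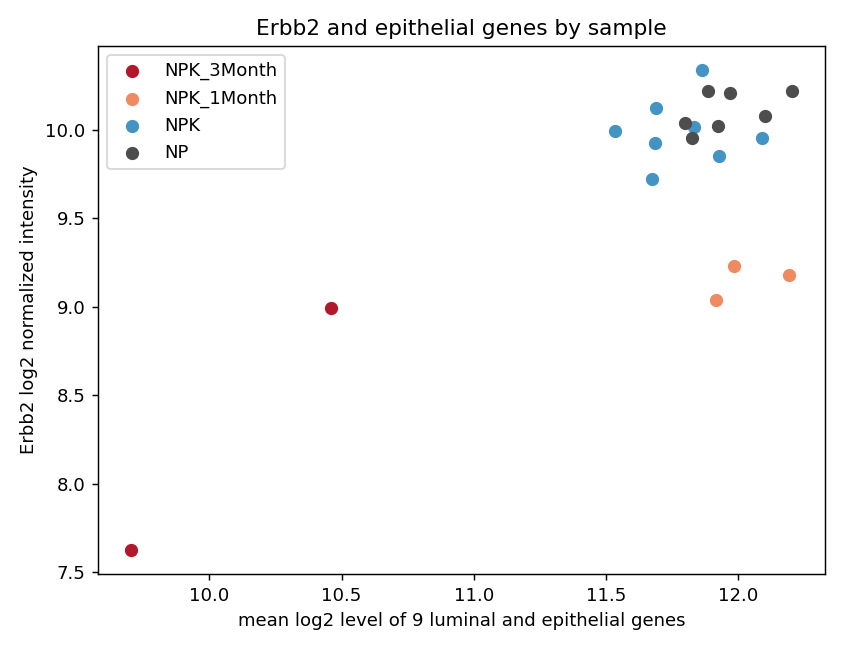
Erbb2 log2 normalized intensity (y axis) against the mean log2 level of 9 luminal and general epithelial genes (x axis), 1 point a sample, coloured by group. The NPK_3Month samples are low on both axes, and the NPK_1Month samples have epithelial means of 11.92 to 12.19 with Erbb2 at 9.04 to 9.23.

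The 10 tested probes, 5 of them of Egfr, were also counted against NP. In NPK_3Month, 2 of the 10 were higher, 1 was lower and 7 did not pass, against 23.9% higher and 21.5% lower over all probes, with a median of 0.22. In NPK_1Month, 4 were higher and 1 was lower, against 18.4% and 19.3%, with a median of 0.43. By gene, Hbegf was higher in NPK_3Month, in NPK_1Month and in NPK, Egfr in NPK_1Month and NPK by its brightest probe, and Erbb2 was lower in both month-labelled groups. These 3 comparisons share the NP samples.

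Among the related ligands and the fourth receptor, which are not members, only Nrg1 passed. Nrg1, neuregulin 1, is a ligand of ERBB3 and ERBB4. Its probe ILMN_2971688 was detected on both NPK_3Month arrays, on all 3 NPK_1Month arrays, on 7 of 8 NPK arrays and on 0 of 8 NP arrays. The levels were 7.97 and 7.14 in NPK_3Month, 6.06, 6.29 and 5.97 in NPK_1Month, 5.42, 6.28 and 6.83 as lowest, median and highest in NPK, and 4.83, 4.97 and 5.21 in NP. Nrg1 was at least 1.70-fold higher in NPK than in NP (adjusted p = 5.91e-05), at least 4.25-fold higher in NPK_3Month (adjusted p = 9.27e-07) and at least 1.56-fold higher in NPK_1Month (adjusted p = 0.00139). No NP array counted towards the detection filter for this probe, which passed it through the groups where its level was higher. The filter therefore does not stand apart from these comparisons.

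Between the month-labelled groups Nrg1 was higher in NPK_3Month by 1.44 ± 0.31 (adjusted p = 0.00359), and by 1.03 without NPK_3Month replicate 1 (adjusted p = 0.121). With the luminal mean as a covariate that difference was 0.019 (adjusted p = 0.998), and in the authors' processed values it was 0.46 (adjusted p = 0.0854). The calls against NP were lost in NPK_3Month with the luminal mean as a covariate (1.19, adjusted p = 0.506) and in NPK_1Month with the seminal vesicle mean (1.03, adjusted p = 0.0764), and the other alternatives run kept them. The luminal mean does not overlap between NPK_3Month and the other groups, nor the seminal vesicle mean between NPK_1Month and NP. These fits therefore cannot tell the covariate from the group. With the luminal mean, 0 probes were called between the month-labelled groups. The other 2 Nrg1 probes were undetected. Epgn, another EGFR ligand, differed by 0.41 ± 0.31 between NPK and NP (adjusted p = 0.328), and Nrg4 by -0.54 ± 0.27 (adjusted p = 0.137). Nrg3 and Erbb4 were below detection and not tested, and Nrg2 was not analysed here.

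Genes around the receptors were taken from 4 lists, beside which the median over all 12570 genes was -0.0055 for NPK against NP and 0.016 for NPK_3Month against NPK_1Month. Over all probes, 13.4% were higher and 19.0% lower in the first of these comparisons and 8.25% and 7.19% in the second. These shares count every tested probe, whereas the lists take the brightest probe of each gene, so the 2 are not the same measure. Of the genes that release or mature the ligands, 1 of 9 was higher in NPK than in NP, 3 were lower and 5 did not pass, with a median of -0.35. Counts this small are not read as a result about the list. Adam9, a membrane protease reported to shed HBEGF, was 2.62-fold lower in NPK (-1.39 ± 0.29, adjusted p = 0.00132). Rhbdl2, a rhomboid protease, was 1.69-fold lower (-0.76 ± 0.17, adjusted p = 0.00271). Adam12, another reported HBEGF sheddase, was at least 1.17-fold higher in NPK (adjusted p = 0.0087), with detection on 4 of 8 NPK and 0 of 8 NP arrays. No NP array counted towards the detection filter for its probe, so the same limit as for Nrg1 holds. Adam17, the main sheddase of several EGFR ligands, had -0.39 ± 0.17 (adjusted p = 0.0806). Between NPK_3Month and NPK_1Month 1 was higher, Cnih1 (0.83, adjusted p = 0.0254), and 1 was lower, Rhbdf1 (-0.64, adjusted p = 0.0242).

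Of the genes that restrain the receptors, 3 of 12 were higher and 3 were lower in NPK against NP, beside 13.4% and 19.0% over all probes, with a median of 0.14. The higher genes were Lrig1, which promotes receptor degradation (0.65 ± 0.19, adjusted p = 0.015), the receptor phosphatase Ptprj (0.87 ± 0.24, adjusted p = 0.00983) and Lrrk1, a kinase that acts in EGFR trafficking (0.48 ± 0.13, adjusted p = 0.00994). Socs5, a suppressor of cytokine signalling that also promotes EGFR degradation, was lower (-0.61 ± 0.11, adjusted p = 0.00037), as was Ptpn1, a phosphatase that acts on EGFR (-1.05 ± 0.21, adjusted p = 0.00113). The ubiquitin ligase Cblb was lower too (-1.20 ± 0.31, adjusted p = 0.00633) and was detected on 3 of 8 NPK arrays, against 8 of 8 NP arrays. In NPK_3Month against NPK_1Month, 3 were higher and 1 was lower. Lrig1 was higher there too (1.46 ± 0.34, adjusted p = 0.00603), as was Errfi1, an inhibitor that binds the kinase domain (0.72 ± 0.18, adjusted p = 0.00863). Cblc, an epithelial ubiquitin ligase of the CBL family, was 5.74-fold lower in NPK_3Month (-2.52 ± 0.41, adjusted p = 0.000364).

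Adaptors that link the receptors to RAS and PI3-kinase showed 2 higher and 3 lower of 9 in NPK against NP, beside 13.4% and 19.0% over all probes, with a median of -0.40. Eps8, an EGFR substrate, was higher (0.87 ± 0.14, adjusted p = 0.000122), and Gab1, a docking protein, was lower (-0.58 ± 0.11, adjusted p = 0.000983), as was Nck1 (-0.41 ± 0.10, adjusted p = 0.00603). In NPK_3Month against NPK_1Month, 2 were higher and 2 were lower. Grb7, an adaptor encoded near Erbb2, was 5.88-fold lower in NPK_3Month (-2.56 ± 0.46, adjusted p = 0.000824), and Gab1 was lower as well (-0.71 ± 0.20, adjusted p = 0.0215). Eps8 was 1.99-fold higher (adjusted p = 0.00798) and Shc1, which couples receptors to RAS, 1.55-fold higher (adjusted p = 0.0212).

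Feedback and target genes of the MAPK pathway, which lies below these receptors and below RAS, were the list with the most calls of the 4 described. In NPK against NP, 8 of 10 were higher and 0 were lower, beside 13.4% and 19.0% over all probes, with a median of 1.28. Phlda1 was 3.07-fold higher (1.62 ± 0.17, adjusted p = 5.54e-06), Epha2 2.80-fold (1.49 ± 0.18, adjusted p = 1.44e-05), and Dusp6, an ERK phosphatase, 2.30-fold (1.20 ± 0.18, adjusted p = 7.17e-05). In NPK_3Month against NPK_1Month, 4 were higher and 1 was lower, with a median of 0.85. Spry4 and Spred1, inhibitors of the pathway, were higher (1.63 ± 0.37, adjusted p = 0.00467, and 0.90 ± 0.26, adjusted p = 0.0238), while Phlda1 was lower (-1.16 ± 0.30, adjusted p = 0.0132).

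Likeness to each member was ranked over 20 samples by Pearson's r of the deviations from the group means, among 12569 other genes, as a description. The samples share chips, and so large a search returns high values by its size. Erbb2 was closest to the epithelial genes Cldn3 (0.923), Prss8 (0.918) and Kcnk1 (0.918). Its SD was 0.97 between the 2 NPK_3Month samples, against 0.10 in NPK_1Month, 0.18 in NPK and 0.11 in NP. Its r values therefore rest largely on that pair. Hbegf was closest to Spcs2 (0.830), 1700001J03Rik (0.753) and Dhrs13os (0.743). Btc was closest to Nip7 (0.884), Insl6 (0.859) and Tnfaip8l3 (0.843). The SD of Btc was 1.62 in NPK_3Month, against 0.65 in NPK_1Month, 0.47 in NPK and 0.34 in NP. Its r values therefore also rest in good part on the 2 NPK_3Month samples. Egf was closest to Bag2 (0.847), Plin3 (0.822) and Esm1 (0.817), and Egfr to Atxn7 (0.824), Fmnl2 (0.824) and Vwa5a (0.807). The r values of Egf rest in good part on the NP samples (SD 1.81), where its level followed the chips. Between members, Btc and Erbb2 had an r of -0.73, which also rests largely on the 2 NPK_3Month samples (Btc SD 1.62). The NPK_3Month sample with the higher Btc, at 10.50, was the one with the lower Erbb2, at 7.62.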

How the data were processed

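Expression was measured in 21 prostate tumours. The authors deposited 45126 probe intensities an array on a linear scale, not normalized; values below 0 show that background had been subtracted. They also deposited processed log2 values, whose transform and centring are unknown and which served only as an alternative within each set of arrays. BeadStudio and lumi are the tools given, per the submitters' processing notes, and the genome build is not given in the sources used here.

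From the intensities, each array was corrected with a normal-exponential model (background mean 0, noise SD from values below 0, which was 8.59 to 26.1 intensity units), in place of a correction by control probes. After an offset of 16, quantile normalization and log2 followed. Detection meant a signal that noise alone would pass with probability 0.01, and probes detected on at least 3 arrays were tested (24217). Probe names came from GEO's platform annotation: 34767 probes had 1 gene symbol, 18 several and 10341 none.

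NP 4 and 5 were averaged, a choice made after comparing replicates, which left 20 samples and n = 7 in NP. All groups entered 1 fit of limma 3.58.1 (R 4.3.3, moderated two-sided tests on 16 residual degrees of freedom), and p-values were adjusted by Benjamini-Hochberg over all tested probes at a threshold of 0.05. The fit was tested on simulated data with independent noise and no chip effect. The arrays had a chip block correlation of 0.22, which that test does not cover. The brightest probe stood for a gene in lists. A group with no detected array gives a bound ("at least"). The labels do not tie samples to separate animals: p-values reflect only how much these samples vary, and the number of arrays limits their precision. In each list, the genes named were taken by smallest adjusted p past the threshold; others named were chosen after their values were seen. Members, lists and tests were chosen with earlier results of these data known. Promoter windows came from RefSeq (GRCm38.p6). Probe and protein sequences were not used here, and the other alleles of the model are not reported here.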

Additional observations from a re-analysis of the deposited data

Results flagged for a closer look

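Egfr in sample NPK 3 stood apart from the other NPK tumours. Its brightest probe had a level of 10.53 there, against 11.03 in the next lowest NPK sample, and this gap was 0.533 of the range of the group. A gap this large arises by chance in about 5% of groups, and 20 groups were looked at.

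The Tgfa probe was detected on 1 array, NPK 8, at an intensity of 51.5, above its intensities on all NP arrays. Tgfa was in no comparison.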

How the results depend on the processing

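Hbegf stayed past the threshold in all 36 alternatives for NPK against NP (0.91 to 1.74) and all 24 for NPK_1Month against NP (1.64 to 2.31), and in 22 of 23 for NPK_3Month against NP, the exception being the luminal mean as a covariate (4.31, adjusted p = 0.103). For NPK against NP, median scaling gave 1398 probes higher and 10061 lower and member probes 1 higher and 1 lower, with Btc at -0.30 and Egfr at -0.018; the chip as a random block gave 1360, 2405 and 1 member probe higher; the seminal vesicle mean as a covariate gave 1365 and 2064; the luminal mean put Btc at -0.075 and Erbb2 at 0.037. Leaving out the chip of NP 1 to 5 gave 1 member probe higher and 1 lower, that of NP 6 to 8 gave 2040 probes and 2 member probes higher, Btc at -0.10 and Egf at 0.43, that of NPK 1 to 5 gave 1682 higher and 2202 lower, and chips of 1 barcode series gave 1168, 1816 and Egf at 0.58.

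For NPK_3Month against NPK_1Month, 0 member probes were lower with median scaling (Egfr at 0.0052), with only those groups (1224 probes higher), with the authors' processed values (977 probes lower), with the seminal vesicle mean (953 higher, 1073 lower, Btc at -0.70) and with the luminal mean. The luminal mean left 0 probes called in either direction (1908 at an unadjusted p under 0.05, in limma), Btc at -2.57, Egf at 2.26 and Erbb2 at 0.89; the SE of Erbb2 grew to 0.61, against 0.26 without it. Leaving out 1 sample gave 755 to 1746 probes higher, 669 to 1593 lower, 0 to 1 member probes lower and Btc at -0.93 to 1.36.

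For NPK_1Month against NP, median scaling left 2 member probes higher, the chip block 2545 probes higher, 2886 lower and 1 member probe higher, the seminal vesicle mean 1654 and 1607, and array weights put Egf at 0.12. Leaving out 1 sample gave 2929 to 4405 probes higher, 1 to 4 member probes higher and Egf at -0.77 to 0.33. For NPK_3Month against NP, the chip block left 1 member probe higher, the macrophage mean gave 2 lower, and the luminal mean 31 probes higher, 10 lower, 0 member probes in either direction, Btc at -2.06 and Egf at 1.87. Leaving out 1 sample gave 3509 to 5741 higher, 3224 to 5158 lower and Btc at -0.52 to 1.77. The luminal and macrophage covariates were chosen after seeing the data. The luminal mean does not overlap between NPK_3Month and the other groups. The seminal vesicle mean does not overlap between NPK_1Month and either NP or NPK_3Month. In those comparisons the covariate and the group cannot be told apart.

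With a replicate block, 0 member probes were lower for NPK_3Month against NPK_1Month, 1 was higher for NPK_3Month against NP, and Egf was at 0.45 for NPK_1Month against NP. Deviations of same-numbered samples correlated at -0.13 to 0.06. These values give no sign of pairing by number, but a pairing need not raise them, so they cannot exclude it. The cause of these changes was not tested. The 2 arrays of NPK_3Month, and signals near background for Egf, Ereg, Tgfa and Erbb3, limit what can be seen.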
